A study of Homo sapiens with 15 samples.

Results

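The 351 genes described here are antisense RNA genes of the human genome that were expressed in HT-1080 cells, out of 60670 genes in the count table and 1821 genes of any level with an antisense symbol. A gene was taken when its symbol ended in -AS followed by a number and its mean reached 2 CPM, the count scaled to the total of its library, in at least 1 of the 5 groups, and 1 snoRNA-hosting antisense gene was left out. The genes were thus chosen by their own counts, the values that are compared below. Just inside the limit, the highest group mean was 2.01 CPM for TRIM7-AS2 and 2.02 CPM for UBQLN1-AS1, and just outside it 1.98 CPM for CYLD-AS1 and for KAZN-AS1. The gene named before -AS is called the sense partner here, and the table listed 344 of these partners, which served all but 1 of the 351 genes.

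HT-1080 is a human fibrosarcoma line, and all libraries come from this 1 line. In the senescent groups, a dominant negative mutant of the telomere protein TRF2 had been expressed for 6 days, which uncaps telomeres. The 5 groups of 3 libraries each were cycling cells in the vehicle DMSO (labelled 6 h), senescent cells in DMSO for 6 h, senescent cells in 1 uM GNF-7 for 6 h, senescent cells in DMSO for 24 h and senescent cells in 1 uM GNF-7 for 24 h. GNF-7 is a kinase inhibitor, which the study's title describes as an allosteric activator of GCN2, the kinase that senses amino acid shortage. No cycling cells were given GNF-7, so every GNF-7 comparison is within senescent cells. The comparison of senescent with cycling cells, that of GNF-7 with DMSO at 6 h, that of DMSO at 24 h with 6 h and that of the GNF-7 effects at the 2 times all use the senescent DMSO 6 h libraries, so their values are not independent of each other.

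Antisense RNA genes are transcribed from the strand opposite to another gene. Some start beside the promoter of that gene and run away from it, so that both share 1 regulatory region, and others run into the gene and overlap its exons. Several are known to act on the transcription, splicing or stability of the sense RNA, while many are thought to be products of bidirectional promoters, and most are less abundant than the coding genes beside them.

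In the GENCODE 29 annotation, 120 of the 351 genes were head-to-head with their partner, meaning opposite strands with starts at most 1000 bases apart. A further 171 shared exon bases with the partner without being head-to-head, 51 overlapped the partner without sharing exon bases, 7 lay apart from it, 1 was on the same strand and 1 had no partner listed. Exon bases were shared with some gene of the other strand in 285 of them and with another gene of the same strand in 38, and 63 shared no exon base with any other gene. The libraries came from a stranded mRNA kit, but the strand setting of the counting is not given in the sources used here, so for the 285 genes reads of the 2 strands cannot be assigned with certainty. A set of 335 noncoding genes lying wholly inside exons of other-strand coding genes at 10 CPM or more is described beside this. Their median level per kb of exon was 0.631% of the level of the host gene, and the third quartile was 2.39%. Of these genes 74 had no count at all, 185 had 10 counts or more over the 15 libraries and 3 reached the level of their host. Of the 351 antisense genes, 2 lay wholly inside exons of the other strand. Counting that leaves out reads shared by 2 genes would also give such genes few counts or none, and the strand setting was not tested further.

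Sequences of 5 genes are shown because the results below turn on them or because they hold the one motif that was searched for the stress response. KLHL30-AS1 is a single-exon gene of 3106 bases at chr2:238152889-238155994 on the minus strand, and the first 150 bases of its GENCODE 29 transcript (chr2:238155845-238155994, minus strand, GRCh38) are printed. The other sequences are RefSeq promoter windows of 300 bases (GRCh38.p14), from 250 bases before to 50 bases after the RefSeq start of the RNA, which lies 737 bases from the GENCODE 29 start for DLGAP1-AS2, 880 for NHSL1-AS1, 196 for TMPO-AS1 and 0 for L3MBTL2-AS1. They lie at chr22:41217578-41217877 on the minus strand for L3MBTL2-AS1, chr18:3603487-3603786 on the plus strand for DLGAP1-AS2, chr6:138691418-138691717 on the plus strand for NHSL1-AS1 and chr12:98516177-98516476 on the minus strand for TMPO-AS1. Capitals mark a match to TGATGNAA, the core of the C/EBP-ATF response element, on either strand.
KLHL30-AS1: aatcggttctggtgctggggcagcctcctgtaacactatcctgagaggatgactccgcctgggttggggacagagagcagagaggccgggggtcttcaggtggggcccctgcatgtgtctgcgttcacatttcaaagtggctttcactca
L3MBTL2-AS1: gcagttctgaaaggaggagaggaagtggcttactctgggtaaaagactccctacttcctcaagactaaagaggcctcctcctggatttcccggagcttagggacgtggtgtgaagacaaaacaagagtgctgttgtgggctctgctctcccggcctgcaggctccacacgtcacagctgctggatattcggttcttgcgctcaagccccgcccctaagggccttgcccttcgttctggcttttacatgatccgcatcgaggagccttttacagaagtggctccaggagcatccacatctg
DLGAP1-AS2: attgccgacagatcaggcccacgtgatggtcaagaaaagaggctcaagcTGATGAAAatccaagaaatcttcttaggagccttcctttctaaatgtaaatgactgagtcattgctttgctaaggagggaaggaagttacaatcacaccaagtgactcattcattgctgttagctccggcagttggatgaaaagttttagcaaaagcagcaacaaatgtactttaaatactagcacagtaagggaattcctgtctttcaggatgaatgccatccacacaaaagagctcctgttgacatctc
NHSL1-AS1: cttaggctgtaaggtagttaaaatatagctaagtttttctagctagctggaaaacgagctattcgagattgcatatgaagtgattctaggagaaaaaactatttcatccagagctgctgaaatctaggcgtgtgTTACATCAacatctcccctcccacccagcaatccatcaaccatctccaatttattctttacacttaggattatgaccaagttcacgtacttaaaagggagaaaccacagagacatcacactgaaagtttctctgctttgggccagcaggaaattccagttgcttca
TMPO-AS1: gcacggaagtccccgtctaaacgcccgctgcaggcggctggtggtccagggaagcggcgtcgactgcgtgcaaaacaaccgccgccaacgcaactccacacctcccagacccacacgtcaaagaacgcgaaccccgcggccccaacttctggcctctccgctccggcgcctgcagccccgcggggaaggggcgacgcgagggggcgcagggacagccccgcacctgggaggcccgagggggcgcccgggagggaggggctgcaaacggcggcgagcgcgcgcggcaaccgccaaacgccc

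DLGAP1-AS2 held the motif as TGATGAAA at position -201 from the RefSeq start, and NHSL1-AS1 held its reverse complement, TTACATCA, at -116. No match was found in the KLHL30-AS1, L3MBTL2-AS1 or TMPO-AS1 sequences, which says only that these letters are not in those windows. The KLHL30-AS1 window is transcript and holds no promoter, and the whole transcript has 1 match. RefSeq had a promoter for 265 of the 351 genes. TGATGNAA was in 1.89% of these 265 promoters (5 genes) and in 4.46% of the 27305 genes with a promoter. It was in 3 of the 27 promoters of genes that rose at least 2-fold with GNF-7 at 6 h, namely DLGAP1-AS2, NHSL1-AS1 and ZBED3-AS1, and in the same 3 of the 53 promoters of genes that did so at 24 h. The cAMP response element TGACGTCA was in 4.91% of the 265 promoters and in 2.25% of all. Of the E2F forms, TTTGGCGC was in 1 antisense promoter (0.795% of all promoters had it) and TTTCGCGC in 3 (0.630% of all). The median GC content was 65.0% for the antisense promoters against 58.3% for all genes. These matches are descriptions of sequence, not of bound sites.

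The libraries held 25991007 to 32323393 counts. TERF2, the gene of TRF2, was at 58.2 ± 3.65 CPM in cycling cells and 287 ± 8.17 CPM in senescent cells in DMSO at 6 h (SD, n = 3 each). It was at 222 ± 8.60 CPM with GNF-7 at 6 h, and at 24 h at 220 ± 7.26 CPM in DMSO and 132 ± 5.38 CPM with GNF-7. These counts also hold the cells' own TERF2, from which the mutant is not separated. All 6 mesenchymal markers checked were expressed (summed 7111 to 10299 CPM), and no marker of epithelial cells, leukocytes or endothelium (3 each) had a group mean of 1 CPM, the highest single library being at 1.06 CPM for PECAM1. Mitochondrially encoded genes took a mean of 4.32% of counts in cycling cells, 11.7% and 16.9% in senescent cells in DMSO at 6 h and 24 h, and 14.1% and 23.3% with GNF-7 at 6 h and 24 h. This share moved with the groups, and its part in the results was not tested beyond the counts without mitochondrial genes given below. In bulk RNA, fewer cells expressing a gene and less RNA per cell cannot be told apart. The replicates are labelled as biological, and p-values measure the spread between these samples only.

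The antisense genes were low in level and highest in the libraries treated with GNF-7 for 24 h. Their median over the 15 libraries was 4.01 CPM (range 0.764 to 109), with 76 genes at 10 CPM or more and 10 at 50 or more. Per kb of exon, the antisense gene was the higher member in 117 of 347 pairs, and its median level was 36.6% of that of the partner. A mean of 2 CPM was reached by 192 genes in cycling cells, 265 and 259 in senescent cells in DMSO at 6 h and 24 h, 304 with GNF-7 at 6 h and 320 with GNF-7 at 24 h. In all 5 groups it was reached by 178 genes. It was reached in only 1 group by 50 genes, 33 of them only with GNF-7 at 24 h, and such genes had to differ between groups because of the way they were chosen.

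The same holds for named genes that reached the limit only on the side where they are high. Only GNF-7 groups, all of them senescent, reached it for KLHL30-AS1, L3MBTL2-AS1, VLDLR-AS1, ARHGEF4-AS1, UGDH-AS1, GLIPR1-AS1, RUNX3-AS1, DAAM2-AS1, TEDC2-AS1 and TMEM92-AS1. Only senescent groups did for PDE7B-AS1, INKA2-AS1, FOSL2-AS1 and LMNTD2-AS1, and only cycling cells for ITGB2-AS1 and PTPRG-AS1. No GNF-7 group did for EFCAB10-AS1 or SERTAD4-AS1. Only senescent cells in DMSO did for NEXN-AS1, only those at 6 h for MAP3K4-AS1 and RASAL2-AS1, and only senescent cells at 6 h for NAXD-AS1. For these genes the values of the comparison concerned are a description, with no p and nothing rested on them.

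The 351 genes together took 0.207 ± 0.00254% of the counts in cycling cells, 0.275 ± 0.00279% in senescent cells in DMSO at 6 h and 0.272 ± 0.000599% at 24 h. With GNF-7 the share was 0.343 ± 0.0141% at 6 h and 0.397 ± 0.00804% at 24 h (mean ± SD, n = 3 each). The libraries of cycling cells, of senescent cells in DMSO and of senescent cells in GNF-7 did not overlap. Outside mitochondrial genes the order of cycling cells, DMSO and GNF-7 was the same, from 0.216% to 0.518%, while the 2 DMSO groups stood at 0.311% and 0.327%. The sense partners together took means of 3.07%, 2.88% and 2.76% in cycling cells and in DMSO at 6 h and 24 h, and 2.82% and 2.46% with GNF-7 at 6 h and 24 h, the last below every library of the other groups (2.43% to 2.49%). The highest group mean was that of GNF-7 at 24 h for 59.5% of the antisense genes and 28.1% of all 13763 genes at the same limit, and that of cycling cells for 12.8% and 43.9%.

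**Figure D1:**
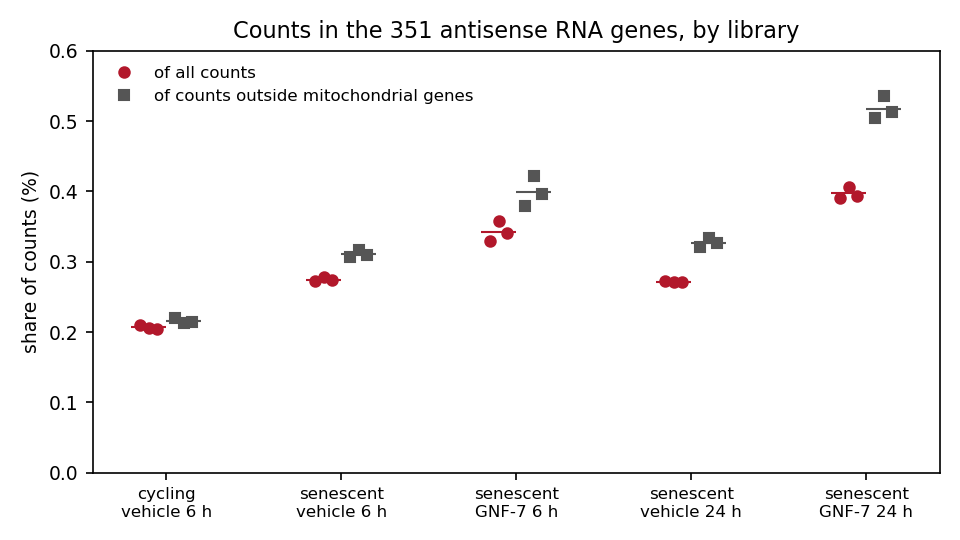
Share of each library's counts that fell in the 351 antisense genes, in percent, for the 5 groups on the x axis. Each point is 1 library and each line a group mean, drawn for all counts and for counts outside mitochondrial genes. With all counts, cycling libraries lie near 0.207%, both DMSO groups of senescent cells near 0.27% and GNF-7 libraries between 0.329% and 0.406%.

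The 4 genes of highest mean level did not move together. FGD5-AS1 had 146, 151 and 156 CPM in cycling cells and 102, 98.4 and 99.3 CPM in senescent cells in DMSO at 6 h. It fell by 0.60 ± 0.04 on the log2 scale (SE, adjusted p = 4.75e-20, edgeR quasi-likelihood test with Benjamini-Hochberg adjustment, as for every adjusted p of a gene below). FGD5 itself stood at 0.106 CPM or less in every library. CCDC144NL-AS1 likewise fell, from a mean of 97.7 to 65.1 CPM (log2 -0.58 ± 0.05), and rose by 0.23 ± 0.05 with GNF-7 at 6 h. This gene shares 366 exon bases with another gene of its own strand. SLC9A3-AS1 rose in senescent cells from 28.2, 23.9 and 26.6 CPM to 70.9, 77.3 and 77.4 CPM (log2 1.52 ± 0.09, adjusted p = 1.39e-11). Its partner SLC9A3, a sodium-proton exchanger, stood near 3 CPM in all groups and was not called.

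GAS6-AS1 was the fourth. GAS6 encodes the ligand of the TAM receptor tyrosine kinases, and the 2 genes share 421 exon bases. The antisense gene had 10.5, 9.30 and 9.66 CPM in cycling cells, 59.7, 60.3 and 59.6 in senescent cells in DMSO at 6 h, and 114, 137 and 123 with GNF-7 at 6 h. No library of 1 of these groups overlapped another group, and the rise was 2.61 ± 0.07 in senescent cells and 1.06 ± 0.05 with GNF-7 at 6 h. GAS6 rose by 0.53 ± 0.04 in senescent cells, less than its antisense gene, and fell by 0.40 ± 0.04 with GNF-7 at 6 h.

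Senescent cells in DMSO were compared with cycling cells in DMSO at 6 h. A gene is named as risen or fallen where its adjusted p over all 18563 genes tested was under 0.05, and all 351 antisense genes passed the filter on low counts. In this comparison 70.0% of all genes tested passed (35.6% higher and 34.4% lower), and among the antisense genes 199 rose, 44 fell and 108 did not pass. The median log2 change was 0.53 for the antisense genes, 0.06 for all genes and -0.13 for the 313 sense partners tested, of which 105 rose and 150 fell. A rise of at least 2-fold was found for 106 antisense genes (30.2%, all genes 18.5%) and a fall of that size for 12 (3.42%, all genes 7.56%). The 178 genes expressed in every group, whose choice does not need a difference, held 82 rises and 33 falls with a median of 0.23. Of these 178, 29 (16.3%) rose at least 2-fold, and 4 fell by that much. The share that rose so was 18.5% for all genes tested and 13.5% for the 13763 genes at 2 CPM or more in a group. In the 63 genes that share no exon base with another gene, a set chosen after the data were seen, 35 rose and 5 fell (median 0.52). Of the 314 antisense genes below the 2 CPM limit that could be tested, 102 rose and 13 fell. With mitochondrial genes left out, 246 antisense genes passed in place of 243.

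**Figure D2:**
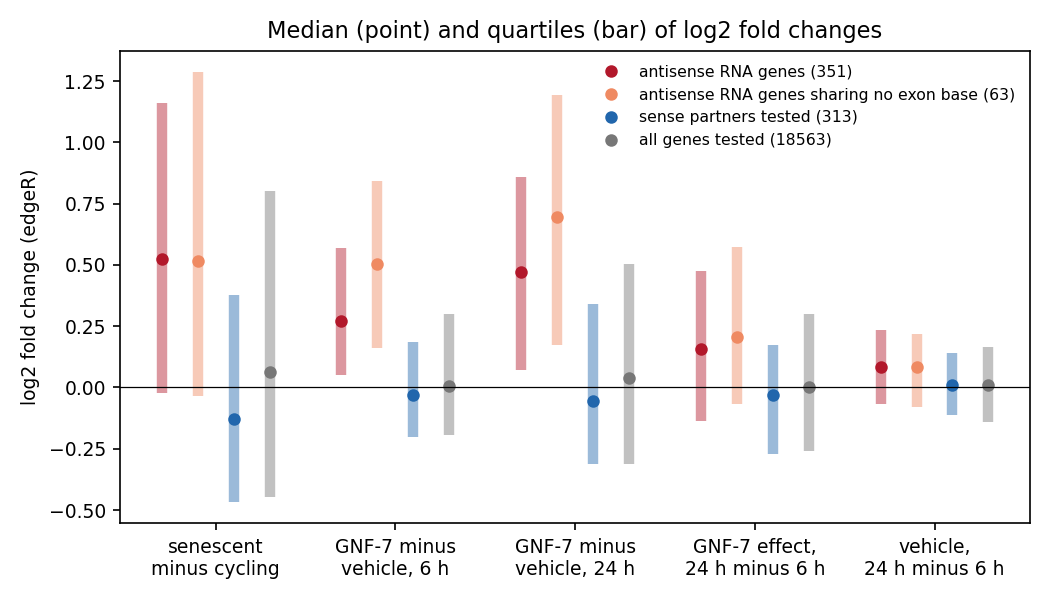
Medians (points) and quartiles (bars) of the log2 fold changes in the 5 comparisons on the x axis, for the 351 antisense genes, the 63 of them that share no exon base with another gene, the 313 sense partners tested and all 18563 genes tested. In senescent cells the antisense median is 0.53 against 0.06 for all genes, and with GNF-7 at 24 h 0.47 against 0.04.

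PDE7B-AS1 had the largest difference among the genes at 2 CPM or more in either group. Except for the interaction, the largest rises and falls were named only where the libraries of the 2 groups did not overlap. For genes named that way, here and below, the lack of overlap is therefore part of the choice and adds no evidence. It is antisense to PDE7B, a phosphodiesterase that degrades cyclic AMP. It had 0.282, 0.448 and 0.947 CPM in cycling cells and 27.3, 33.0 and 32.5 CPM in senescent cells in DMSO at 6 h. All senescent libraries lay far above all cycling ones, and the log2 difference was 5.73 ± 0.25. PDE7B rose by 1.65 ± 0.13. The 2 genes share 452 exon bases, and PDE7B-AS1 shares 334 with another gene of its own strand, so part of its counts may belong to that gene.

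INKA2-AS1 starts 417 bases from INKA2, which encodes an inhibitor of the kinase PAK4, and shares no exon base with it, though it shares 1645 with other-strand annotation. It had 0.201, 0.103 and 0 CPM in cycling cells and 2.25, 1.71 and 2.15 CPM in senescent cells, without overlap (log2 4.36 ± 0.39). INKA2 rose by 1.80 ± 0.08. FOSL2-AS1, at the gene of the AP-1 subunit FOSL2, went from 0.201, 0.344 and 0.0979 CPM to 2.98, 2.68 and 2.88 CPM (3.71 ± 0.29). FOSL2 rose by 0.37 ± 0.04, and the ratio of antisense to sense was higher by 3.09 on the log2 scale. LMNTD2-AS1 went from 0.241, 0.207 and 0.359 CPM to 3.54, 3.66 and 4.30 CPM (3.80 ± 0.24), and LMNTD2 rose by 2.29 ± 0.14. The partner rose for all 3 of these genes.

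The lowest log2 values were those of ITGB2-AS1, PTPRG-AS1, SERTAD4-AS1 and TMPO-AS1. ITGB2-AS1 lies in the gene of the leukocyte integrin beta chain and had 5.35, 4.75 and 4.86 CPM in cycling cells against 0.397, 0.695 and 1.39 CPM in senescent cells (log2 -2.60 ± 0.28). ITGB2 fell by 2.87 ± 0.14. TMPO-AS1 starts 910 bases from TMPO, which encodes a lamina-associated protein of the nucleus, and had 16.3, 12.1 and 14 CPM in cycling cells against 3.54, 2.65 and 3.95 CPM in senescent cells. The groups did not overlap, and it fell by 2.06 ± 0.22 (adjusted p = 2.1e-08). TMPO fell by 2.54 ± 0.05, and the ratio of the 2 genes moved by 0.49, which did not pass (limma adjusted p = 0.167). SERTAD4-AS1 fell by 2.14 ± 0.19 and SERTAD4 by 3.14 ± 0.14.

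PTPRG, the partner of PTPRG-AS1, is a receptor tyrosine phosphatase. The antisense gene went from 4.91, 4.96 and 5.52 CPM to 0.728, 0.758 and 1.11 CPM (log2 -2.57 ± 0.25), while PTPRG went from a mean of 151 CPM to 117 CPM (-0.38 ± 0.04). The ratio was lower by 2.12 on the log2 scale, and the groups of PTPRG-AS1 did not overlap.

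In senescent cells 71 pairs had a risen antisense gene and a fallen sense gene, 5 had the reverse, and 101 of the 177 pairs in which both passed moved in the same direction. Taken singly, 56.7% of the antisense genes rose and 12.5% fell, against 33.5% and 47.9% of the partners tested. More pairs of the first kind than of the reverse thus follow from these shares alone. TEDC2-AS1 belonged to the 71 and shares 14 exon bases with TEDC2, which encodes a centriole protein. TEDC2-AS1 had 0.362, 0.516 and 0.326 CPM in cycling cells and 1.32, 1.61 and 1.46 CPM in senescent cells in DMSO at 6 h. The log2 difference of TEDC2-AS1 was 1.85 ± 0.33. TEDC2 had 28.8, 30.9 and 28.2 CPM and then 8.58, 7.86 and 6.24 CPM, a fall of 1.95 ± 0.11. Neither gene's groups overlapped, and the ratio gained 3.68 on the log2 scale.

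FLG-AS1 rose from 3.58, 3.41 and 3.36 CPM to 19.6, 19.8 and 18.9 CPM (2.50 ± 0.09). FLG, the filaggrin gene of the epidermal barrier, fell by 1.14 ± 0.41 from about 1 CPM, a call lost without replicate 2 of senescent DMSO 6 h (log2 -0.91, adjusted p = 0.0759). TMEM92-AS1 had a log2 difference of 1.46 ± 0.29. The fall of TMEM92 by 1.26 ± 0.52 was lost with DESeq2 (adjusted p = 0.0528) and without any 1 of 4 libraries (log2 from -1.29 to -0.86). ATP2A1-AS1 went the other way. It fell from 2.61, 2.13 and 2.64 CPM to 1.56, 0.758 and 1.08 CPM (log2 -1.12 ± 0.26), while ATP2A1, a calcium pump of the sarcoplasmic reticulum, rose by 2.11 ± 0.17.

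KLHL30-AS1 was chosen for its level with GNF-7, so its values are given as a description and no test is made on it. It had 0.282, 0.103 and 0.0653 CPM in cycling cells, 0.828, 0.758 and 0.624 CPM in senescent cells in DMSO at 6 h and 1.31, 0.670 and 1.32 CPM at 24 h. With GNF-7 it had 13.2, 14.7 and 13.6 CPM at 6 h and 30.1, 34.6 and 34.0 CPM at 24 h. The 5 group means followed the order cycling, DMSO 6 h, DMSO 24 h, GNF-7 6 h and GNF-7 24 h, and only the 2 DMSO groups overlapped. The fitted log2 differences were 2.34 in senescent cells, 4.22 with GNF-7 at 6 h and 4.90 at 24 h.

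KLHL30, a gene of the kelch-like family on the other strand, shares 59 exon bases with KLHL30-AS1 and had group means of 0.0224 to 0.576 CPM. It rose by 2.2 with GNF-7 at 6 h (adjusted p = 0.0035), a call lost without replicate 2 of GNF-7 6 h (1.76, adjusted p = 0.0568), and its 0.73 at 24 h did not pass (adjusted p = 0.296). ERFE, ESPNL and ILKAP lie within 50000 bases. ERFE, which encodes the iron hormone erythroferrone, had log2 changes of 0.09 with GNF-7 at 6 h and -0.69 at 24 h, of which the second passed (adjusted p = 2.41e-05). ESPNL rose by 0.54 at 6 h (adjusted p = 0.0445), a call lost under 6 of 23 alternatives, DESeq2 (adjusted p = 0.0557) and no filter (adjusted p = 0.0878) among them. The other 4 left out replicate 2 or 3 of DMSO 6 h (0.51 and 0.47) or replicate 1 or 3 of GNF-7 6 h (0.57 and 0.39). At 24 h ESPNL was at 0.00. ILKAP, a phosphatase gene, had -0.02 and 0.03 and passed at neither time. The 5 genes outside the antisense set whose log2 CPM was most like that of KLHL30-AS1 over the 15 libraries, among 12588 genes compared, were DDIT3 (Pearson r = 0.991), PREPL (0.988), DYRK3 (0.986), NBR2 (0.985) and CC2D1A (0.984). These correlations describe libraries that share groups, and a gene that differs mainly between the GNF-7 and DMSO groups will score high. DDIT3 encodes CHOP, a transcription factor of the integrated stress response, the program that follows activation of GCN2 and related kinases. PREPL, DYRK3, NBR2 and CC2D1A are not on the list used here for that response. A link between KLHL30-AS1 and the response was not tested. DDIT3 rose by 2.72 and 3.02 with GNF-7 at 6 h and 24 h, and of 42 tested genes of a list for that response 39 rose and 2 fell at 6 h, with a median of 1.51, where 17.9% of all genes were higher. In senescent cells against cycling cells 11 genes of the list rose and 30 fell, with a median of -0.64, where 35.6% of all genes were higher and 34.4% lower.

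**Figure D3:**
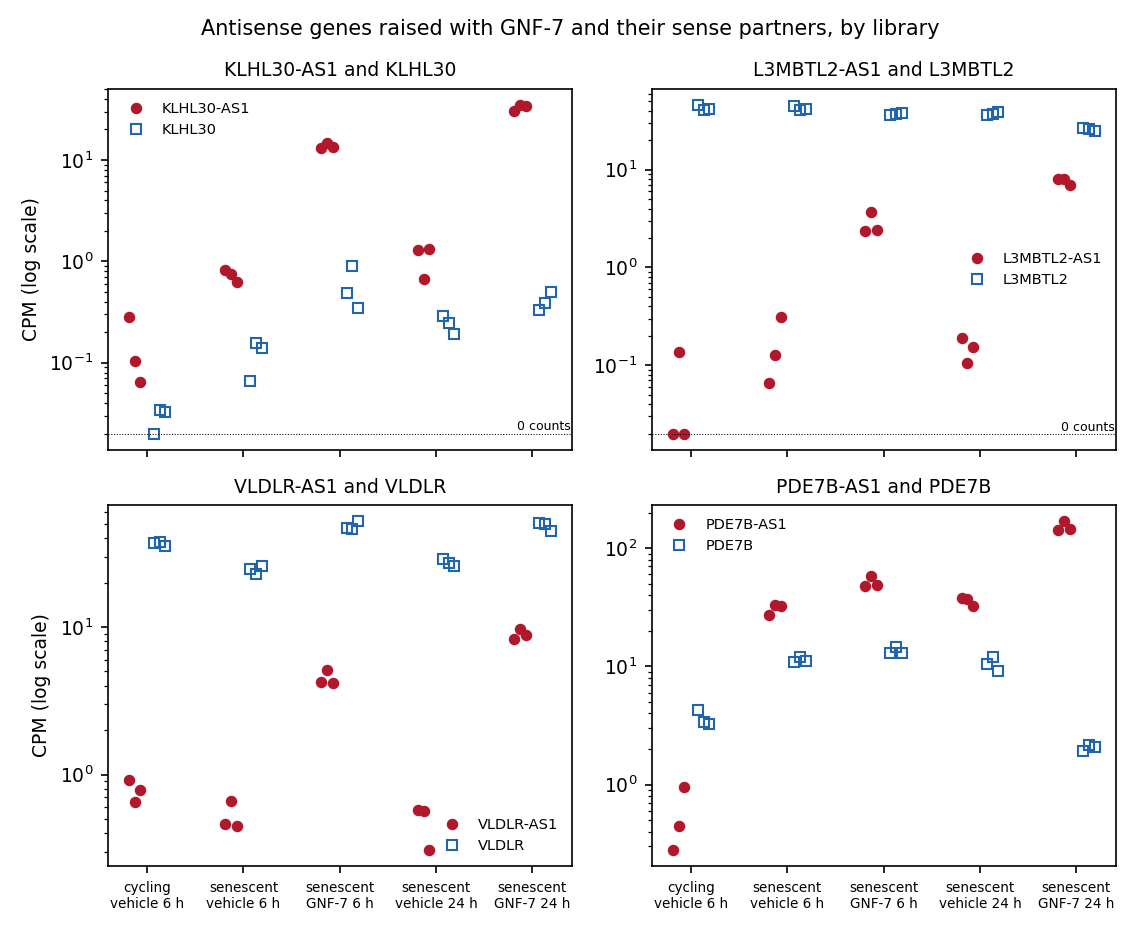
CPM in every library on a log axis for KLHL30-AS1, L3MBTL2-AS1, VLDLR-AS1 and PDE7B-AS1 and for the sense partner of each, in the 5 groups on the x axis. Each point is 1 library, and libraries with no count are drawn on a dotted line at 0.02. KLHL30-AS1, L3MBTL2-AS1 and VLDLR-AS1 lie higher in all GNF-7 libraries than in all DMSO libraries, and PDE7B falls at 24 h of GNF-7 while PDE7B-AS1 reaches 141 to 168 CPM.

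GNF-7 was compared with DMSO in senescent cells at 6 h and, with other libraries, at 24 h. At 6 h 39.3% of all genes passed (17.9% higher and 21.4% lower), and of the antisense genes 140 rose and 21 fell (median 0.27, all genes 0.01). At 24 h 58.9% of all genes passed (29.3% higher and 29.7% lower), and 205 antisense genes rose and 31 fell (median 0.47, all genes 0.04). Of the partners, 70 rose and 93 fell at 6 h, and 94 rose and 131 fell at 24 h. A rise of at least 2-fold was found for 31 antisense genes at 6 h (8.83%, all genes 4.16%) and for 73 at 24 h (20.8%, all genes 10.3%). A fall of that size was found for 1 at 6 h (0.285%, all genes 0.566%) and for 5 at 24 h (1.42%, all genes 3.92%). Among the 178 genes expressed in every group 73 rose and 15 fell at 6 h, and 95 rose and 22 fell at 24 h. Of these 178, 8 (4.49%) rose at least 2-fold at 6 h and 16 (8.99%) at 24 h, and 0 fell by that much. For the 13763 genes at 2 CPM or more in a group the shares that rose so were 2.82% and 6.94%. Of the 63 that share no exon base, 32 rose and 4 fell at 6 h and 38 rose and 3 fell at 24 h. Without mitochondrial genes 163 antisense genes passed at 6 h and 229 at 24 h, in place of 161 and 236.

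The 6 h and 24 h comparisons share no library. With GNF-7 at 24 h 58.4% of the antisense genes rose and 8.83% fell, against 29.3% and 29.7% of all genes. The overlaps below thus start from unlike shares. Of the 140 genes that rose at 6 h, 117 (83.6%) also rose at 24 h, which is 57.1% of the 205 at 24 h, and 1 fell. Over all genes tested the same shares were 72.8% and 44.4%. Of the 21 that fell at 6 h, 9 also fell at 24 h, 42.9% of the first list and 29% of the second, where all genes had 80.9% and 58.4%. Senescence and GNF-7 at 24 h also share no library, and 136 genes rose in both (68.3% of the 199 and 66.3% of the 205, where all genes had 44.0% and 53.6%), while 14 of the 44 that fell in senescent cells rose with GNF-7 at 24 h (31.8%, where all genes had 18.5%).

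L3MBTL2-AS1, VLDLR-AS1 and ARHGEF4-AS1, with KLHL30-AS1, had the largest differences at 6 h among genes at 2 CPM or more. L3MBTL2-AS1 lies at the gene of a Polycomb-group protein and shares 937 exon bases with it. It had 0.0662, 0.126 and 0.312 CPM in DMSO and 2.37, 3.70 and 2.42 CPM in GNF-7 at 6 h, and 0.191, 0.106 and 0.155 CPM against 8.12, 8.05 and 6.91 CPM at 24 h. No GNF-7 library overlapped a DMSO library, and the log2 difference was 4.06 ± 0.35 at 6 h and 5.62 ± 0.33 at 24 h. L3MBTL2 fell by 0.20 ± 0.06 and 0.54 ± 0.06. The ratio was higher by 5.71 on the log2 scale at 24 h.

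VLDLR-AS1 is antisense to the gene of the very low density lipoprotein receptor. It had 0.464, 0.663 and 0.451 CPM in DMSO and 4.25, 5.07 and 4.17 CPM in GNF-7 at 6 h, a log2 difference of 3.08 ± 0.23. At 24 h it had 0.574, 0.564 and 0.310 CPM in DMSO and 8.32, 9.74 and 8.77 CPM in GNF-7, a difference of 4.18 ± 0.22. GNF-7 and DMSO libraries did not overlap. The partner rose by 0.98 ± 0.06 and 0.82 ± 0.06, and the ratio was higher by 1.98 at 6 h and 3.25 at 24 h. ARHGEF4-AS1 starts 78 bases from ARHGEF4, a guanine nucleotide exchange factor gene. It went from 0.530, 1.04 and 0.451 CPM to 2.46, 2.74 and 3.12 CPM at 6 h (2.02 ± 0.28), and ARHGEF4 rose by 0.80 ± 0.05.

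RUNX3-AS1 had one of the largest differences at 24 h. RUNX3 is a transcription factor gene, and the 2 share no exon base. RUNX3-AS1 had 0.0957, 0.106 and 0.0387 CPM in DMSO and 2.14, 2.76 and 2.79 CPM in GNF-7 at 24 h. The DMSO libraries held 1 to 3 counts each, 7 in all, against 233 in GNF-7, a ratio of 31.3. The gene was chosen through these GNF-7 libraries, so the ratio is a description. RUNX3 rose by 0.56 ± 0.05.

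DLGAP1-AS2, NHSL1-AS1 and ZBED3-AS1 are named after their values were seen. Of the 5 antisense genes with the response element core, they are the 3 that rose at least 2-fold with GNF-7. DLGAP1-AS2 had means of 6.93 ± 0.538 CPM in DMSO and 24.6 ± 2.26 CPM in GNF-7 at 6 h, and 5.51 ± 0.697 and 34.5 ± 1.90 CPM at 24 h (SD, n = 3 each). It rose by 1.82 ± 0.09 at 6 h (adjusted p = 5.01e-25) and by 2.64 ± 0.10 at 24 h. NHSL1-AS1 went from 3.76 ± 0.458 to 14.1 ± 2.43 CPM at 6 h (1.91 ± 0.13) and from 3.78 ± 0.731 to 19.5 ± 1.39 CPM at 24 h (2.35 ± 0.13). ZBED3-AS1 rose by 1.66 ± 0.16 and 2.36 ± 0.16. All 3 had smaller log2 changes at both times than L3MBTL2-AS1 and VLDLR-AS1, whose values are descriptions.

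Falls with GNF-7 were fewer and smaller at 6 h. AGAP2-AS1 went from 19.0, 17.8 and 17.2 CPM to 10.3, 11.6 and 11.7 CPM, without overlap (log2 -0.68 ± 0.09, adjusted p = 8.9e-10), while AGAP2 was not called (0.02). NEXN-AS1, at the gene of an actin-binding protein, had -0.69 ± 0.24, and EFCAB10-AS1 had -0.61 ± 0.23. Both of these values are descriptions. Without any 1 of 4 libraries, replicates 1 and 3 of DMSO 6 h among them, they were -0.66 to -0.59 for NEXN-AS1 and -0.63 to -0.46 for EFCAB10-AS1. MBNL1-AS1, at a gene of a splicing regulator, fell by 0.67 ± 0.18, a call lost without replicate 1 of DMSO 6 h (-0.45, adjusted p = 0.0771), and MBNL1 fell by 0.23 ± 0.04.

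At 24 h TMPO-AS1 had the largest fall among genes at 2 CPM or more in either group. ITGB2-AS1, at 0.758 CPM in DMSO and 0.187 CPM in GNF-7, fell by 1.98. TMPO-AS1 had 3.06, 3.70 and 2.71 CPM in DMSO and 1.40, 0.520 and 0.863 CPM in GNF-7 (log2 -1.77 ± 0.31, adjusted p = 3.38e-05). TMPO fell by 1.10 ± 0.06. CFLAR-AS1, at the gene of an inhibitor of death-receptor signalling, went from 2.87, 2.12 and 2.32 CPM to 0.935, 1.07 and 0.963 CPM (-1.30 ± 0.25), while CFLAR had a change of 0.03 and was not called. SERTAD4-AS1 had -1.26 ± 0.23 beside a fall of 2.26 ± 0.20 in SERTAD4. RASAL2-AS1, which starts 157 bases from the Ras GTPase activator gene RASAL2, had -1.23 ± 0.27, and RASAL2 fell by 1.19 ± 0.05.

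Across the 319 pairs in which both genes could be tested, the log2 changes of antisense and sense gene had a Pearson r of 0.36 in senescent cells, 0.38 with GNF-7 at 6 h and 0.22 at 24 h. These are descriptions over pairs that share libraries and, where exons overlap, possibly reads. For the 118 head-to-head pairs r was 0.37, 0.39 and 0.37. For the 152 pairs with overlapping exons it was 0.41, 0.36 and 0.18, and for the 41 that overlap without shared exons 0.28, 0.45 and 0.22. The counts by layout were alike in direction. Of the 120 head-to-head genes 68 rose and 12 fell in senescent cells and 68 rose and 11 fell with GNF-7 at 24 h, and of the 171 with overlapping exons 97 rose and 25 fell and 101 rose and 18 fell.

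A direct test of the ratio of antisense to sense was made with limma over all 588 pairs of the table. In senescent cells 67.1% of the 319 pairs of the expressed antisense genes passed, 176 with antisense gained and 38 with it lost. Over all 588 pairs, which include these 319, 53.6% passed, 44.4% gained and 9.18% lost. With GNF-7 at 6 h 88 of the 319 gained and 15 lost, where 20.7% of all pairs passed, 17.5% gained and 3.23% lost. At 24 h 163 gained and 25 lost, where 45.1% of all pairs passed, 37.6% gained and 7.48% lost. The calls of both genes went in opposite directions in 32 of 84 pairs at 6 h, 31 of them with the antisense gene up, and in 73 of 154 pairs at 24 h, 67 of them with the antisense gene up. Taken singly, 39.9% of the antisense genes rose and 29.7% of the partners fell at 6 h, and 58.4% and 41.9% at 24 h. The reverse shares were 5.98% and 22.4% at 6 h and 8.83% and 30.0% at 24 h, so this lean follows from the shares alone.

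**Figure D4:**
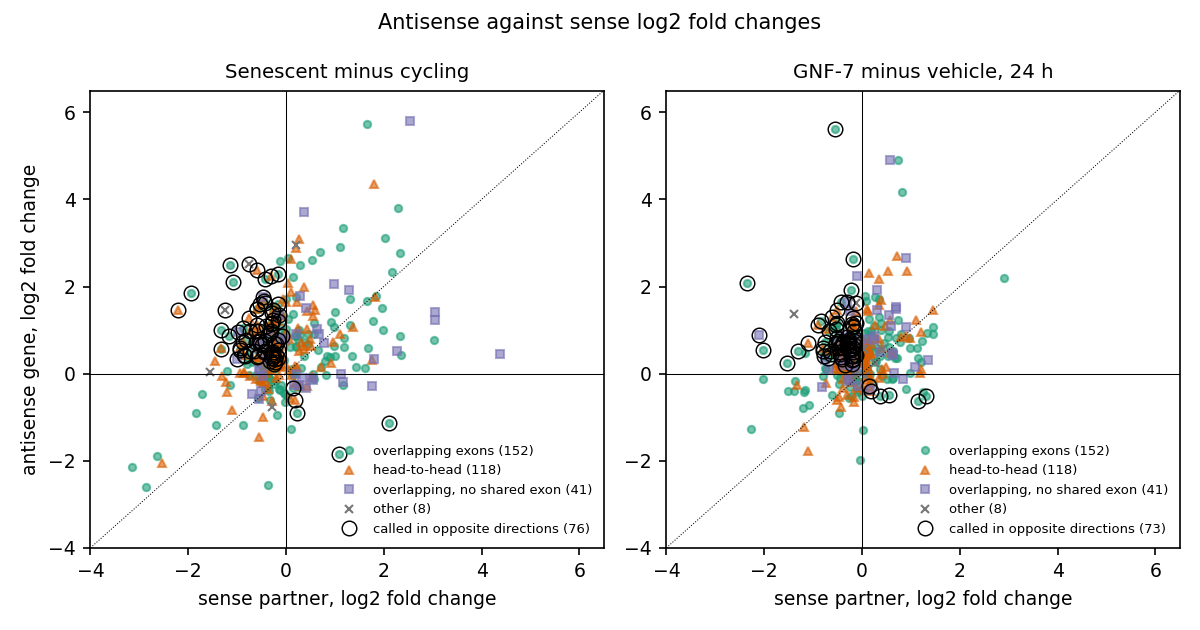
Log2 fold change of the antisense gene (y axis) against that of its sense partner (x axis) for 319 pairs, in senescent against cycling cells and for GNF-7 against DMSO at 24 h. Each point is 1 pair, coloured by layout, the dotted line marks equal change, and circles mark the 76 and 73 pairs in which both genes were called in opposite directions. Most circles, 71 and 67, lie at the upper left, with the antisense gene up and the sense gene down. Such a lean follows from the separate shares of antisense genes that rose and partners that fell.

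The pairs with the largest opposite changes at 24 h were led by PDE7B-AS1. It had 37.5, 37.1 and 32.6 CPM in DMSO and 141, 168 and 144 CPM in GNF-7, a rise of 2.08 ± 0.11 (adjusted p = 4.17e-09). PDE7B had 10.5, 12.0 and 9.09 CPM and then 1.94, 2.14 and 2.09 CPM, a fall of 2.35 ± 0.14 (adjusted p = 8.51e-23). Neither overlapped, and the ratio gained 4.38 on the log2 scale (limma adjusted p = 2.18e-06).

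GLIPR1-AS1 lies within GLIPR1 without sharing exon bases. It had 1.63, 2.05 and 1.86 CPM in DMSO and 3.31, 3.15 and 3.69 CPM in GNF-7 at 24 h (0.88 ± 0.22), while GLIPR1 fell from 407, 384 and 394 CPM to 94.2, 88.3 and 93.5 CPM (log2 -2.10 ± 0.04). TMEM9B-AS1, which starts 336 bases from TMEM9B, rose by 1.12 ± 0.18 while TMEM9B fell by 0.91 ± 0.05. EXTL3-AS1 rose by 1.20 ± 0.21 while EXTL3, a glycosyltransferase gene of heparan sulfate synthesis, fell by 0.84 ± 0.04. ADGRL1-AS1 rose by 0.74 ± 0.19 beside a fall of 0.75 ± 0.05 in the latrophilin gene ADGRL1, but its call was lost without replicate 2 of GNF-7 24 h (0.44, adjusted p = 0.0706).

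At 6 h the 5 largest opposite pairs were smaller. UGDH-AS1, which starts 292 bases from the gene of UDP-glucose dehydrogenase, had 0.993, 1.33 and 1.18 CPM in DMSO and 2.27, 2.61 and 2.67 CPM in GNF-7 (1.10 ± 0.25). UGDH fell by 0.53 ± 0.08. GAS6-AS1 and GAS6 moved by 1.06 and -0.40, as given above. DICER1-AS1, which starts 365 bases from the gene of the microRNA-processing RNase, rose by 0.89 ± 0.19 and DICER1 fell by 0.40 ± 0.05. KCTD21-AS1 rose by 0.75 ± 0.20 while KCTD21 fell by 0.38 ± 0.11. TNS2-AS1 rose by 0.36 ± 0.15 (adjusted p = 0.0479) beside a fall of 0.38 ± 0.04 in the tensin gene TNS2, and the antisense call was lost with DESeq2 (adjusted p = 0.057), with no filter and without any 1 of 11 libraries, the lowest value being 0.25 without replicate 2 of GNF-7 6 h.

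**Figure D5:**
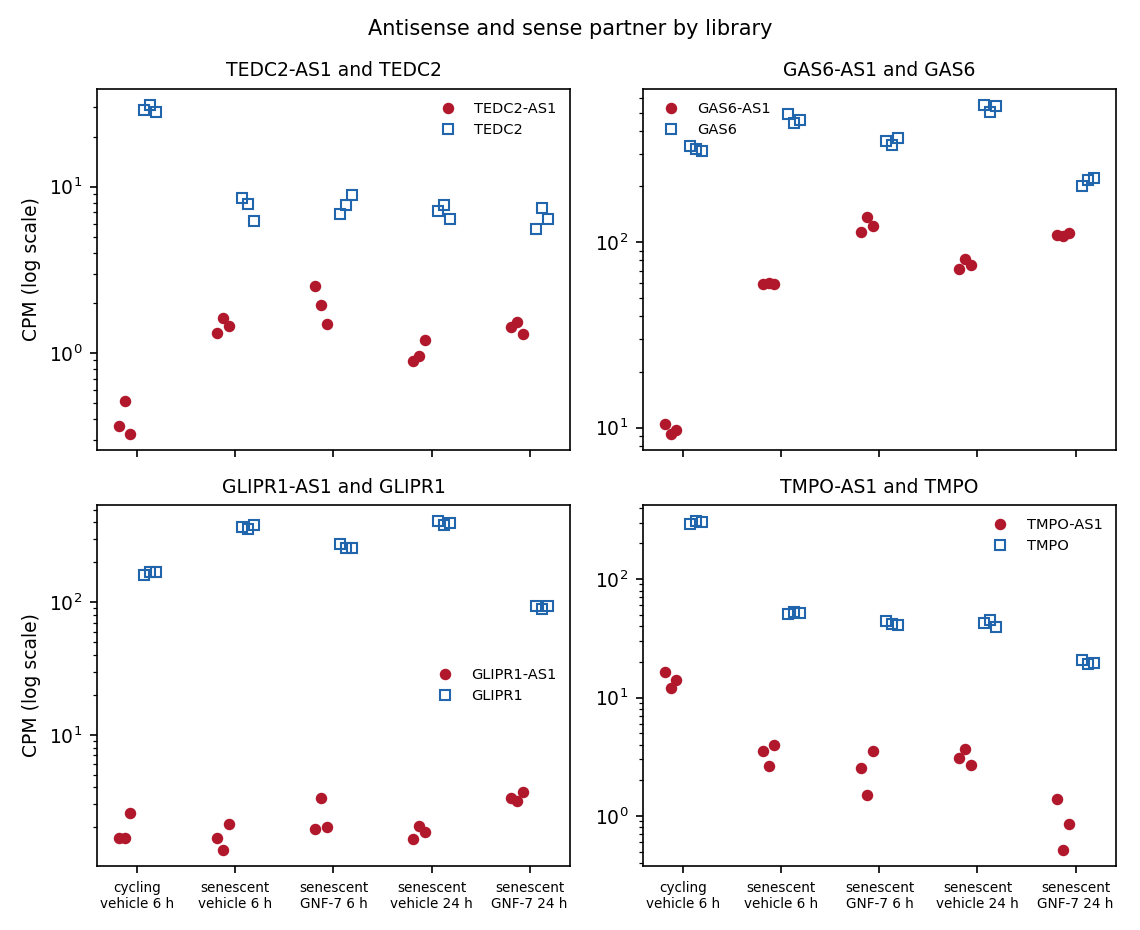
CPM in every library on a log axis for TEDC2-AS1, GAS6-AS1, GLIPR1-AS1 and TMPO-AS1 and for the sense partner of each, in the 5 groups on the x axis. Each point is 1 library. TEDC2-AS1 rises where TEDC2 falls in senescent cells, GLIPR1 falls to 88.3 to 94.2 CPM with GNF-7 at 24 h while GLIPR1-AS1 rises, and TMPO-AS1 and TMPO fall together.

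The GNF-7 effect at 24 h was compared with that at 6 h by an interaction term, for which 30.8% of all genes passed (12.8% higher and 18.0% lower). Of the antisense genes 73 had a higher signed log2 change with GNF-7 at 24 h than at 6 h, and 18 a lower one. For the ratio 43 pairs of the expressed antisense genes gained and 10 lost, where 10.7% of all 588 pairs passed, 7.99% gained and 2.72% lost. The difference was at least 2-fold and higher for 21 antisense genes (5.98%, all genes 2.93%) and at least 2-fold and lower for 4 (1.14%, all genes 2.06%). DAAM2-AS1, at a formin gene, had the largest difference, 2.55 ± 0.46. It had 1.23, 1.48 and 0.971 CPM in DMSO and 0.616, 0.857 and 0.700 CPM in GNF-7 at 6 h, but 0.925, 0.987 and 0.542 CPM and then 2.61, 3.28 and 2.66 CPM at 24 h. DAAM2 was not called in any of the 5 comparisons. RUNX3-AS1 had a difference of 2.35 ± 0.88, with 1.63 as the lowest value, without replicate 1 of DMSO 6 h.

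TMPO-AS1 had a lower log2 change with GNF-7 at 24 h than at 6 h, that is a deeper fall (difference -1.36 ± 0.40, adjusted p = 0.0125). SERTAD4-AS1 had a difference of -1.30 ± 0.32, given as a description. In 14 of 30 pairs the 2 genes differed between the times in opposite directions, 12 of them with the antisense gene up. Taken singly, 20.8% of the antisense genes were higher and 5.13% lower, against 15.3% and 26.5% of the partners tested. PDE7B-AS1 and PDE7B had differences of 1.34 ± 0.16 and -2.59. TMEM9B-AS1 and TMEM9B had 1.01 ± 0.27 and -0.65, and CCDC18-AS1 and CCDC18 had 0.55 ± 0.13 and -0.49, the last lost without replicate 2 of GNF-7 6 h (-0.38) or replicate 3 of GNF-7 24 h (-0.39). THAP7-AS1 and THAP7 were the reverse, with -0.67 ± 0.19 and 0.40.

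Senescent cells in DMSO for 24 h and 6 h differed less. Of all genes 18.5% passed (9.26% higher and 9.29% lower), and 27 antisense genes rose and 8 fell. With library totals in place of TMM factors 15 rose and 19 fell, and the median over all genes was then -0.10 in place of 0.01, so the direction of this list depends on the scaling. FOSL2-AS1 rose from a mean of 2.85 ± 0.151 to 5.25 ± 0.240 CPM (0.88 ± 0.17, adjusted p = 6.56e-05). ATP2A1-AS1 rose by 0.87 ± 0.27, a call lost without replicate 2 or 3 of DMSO 6 h (0.64 and 0.84) or replicate 2 of DMSO 24 h (0.65). MAP3K4-AS1 had -1.17 ± 0.30, and MAP3K4, a kinase gene of the stress-activated cascades, fell by 0.47 ± 0.06. NAXD-AS1 had -0.83 ± 0.24, and -0.62 or -0.68 without replicate 1 or 3 of DMSO 24 h. Only 2 pairs passed the ratio test, both with antisense gained (0.340% of all pairs), and 49 of the 319 had an unadjusted p under 0.05.

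Of 13 antisense genes listed by name because they are well known, 11 were expressed at the limit, and FGD5-AS1 and TMPO-AS1 are given above. OIP5-AS1, the conserved RNA also called Cyrano, fell from 89.8, 89.1 and 94.2 CPM to 47.4, 47.4 and 51.5 CPM in senescent cells (log2 -0.90 ± 0.05) and rose by 0.40 ± 0.05 with GNF-7 at 24 h. OIP5, a centromere protein gene, fell in both comparisons, by 1.85 ± 0.12 and 0.77 ± 0.15. GABPB1-AS1, at the gene of a subunit of an ETS-family complex, rose by 1.29 ± 0.10, 0.56 ± 0.09 and 0.41 ± 0.09 in senescent cells, with GNF-7 at 6 h and with GNF-7 at 24 h. GABPB1 fell by 0.76 ± 0.08 in senescent cells. LOXL1-AS1, beside a lysyl oxidase-like gene of elastic fibres, fell by 1.28 ± 0.07 in senescent cells and 0.44 ± 0.08 with GNF-7 at 6 h. With GNF-7 at 24 h it fell by 0.17 ± 0.08, lost under 8 alternatives (log2 from -0.19 to -0.12), while LOXL1 fell by 1.37 ± 0.05.

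CDKN2B-AS1, also called ANRIL, was at 8.57, 8.50 and 7.28 CPM in cycling cells and 5.53, 6.13 and 5.69 CPM in senescent cells (log2 -0.49 ± 0.12). It rose by 0.61 ± 0.12 and 0.42 ± 0.12 with GNF-7 at 6 h and 24 h. It shares 768 exon bases with another gene of its strand, and CDKN2B, which encodes a CDK inhibitor, is listed at 0 counts in all 15 libraries. THAP9-AS1 rose by 0.57 ± 0.05 and 0.50 ± 0.05 with GNF-7 at the 2 times, and THAP9 by 0.57 ± 0.17 and 0.60 ± 0.17, of which the first was lost without replicate 3 of DMSO 6 h (0.46) and the second without replicate 2 of GNF-7 24 h (0.41). ZEB1-AS1 rose by 0.59 ± 0.11 and 0.42 ± 0.11, beside the repressor of epithelial genes ZEB1, which rose by 0.26 ± 0.05 and 0.63 ± 0.05.

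MAPKAPK5-AS1 rose by 0.31 ± 0.09 and 0.39 ± 0.09 at the 2 times. MCM3AP-AS1 fell by 0.38 ± 0.10 in senescent cells and by 0.51 ± 0.11 with GNF-7 at 24 h. VIM-AS1, antisense to the vimentin gene, did not pass in any of the 5 comparisons. It had 36.7, 32.5 and 24.0 CPM in cycling cells and 28.3, 29.8 and 27.4 CPM in senescent cells in DMSO at 6 h, so these groups overlapped.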

How the data were processed

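The deposited values are raw read counts per gene, made by the authors with STAR 2.7.9a and featureCounts 1.5.1 after bcl2fastq 2.20.0.422 on GRCh38, per the submitters' processing notes. The libraries came from a stranded mRNA kit, per the labels' protocols. The strand setting and the annotation release are not given in the sources used here. Of 60673 entries 3 that name no gene were left out (at most 0.00475% of a library), and 60400 of the other 60670 identifiers had a symbol. Positions and layouts come from GENCODE 29, which holds 58452 of them. The gene set and all lists were chosen with earlier results of these data known.

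Counts were fitted in R 4.3.3 with edgeR 4.0.16 (filterByExpr, TMM scaling, robust quasi-likelihood test, 1 term per group, all 15 libraries), with Benjamini-Hochberg adjustment over the 18563 genes tested and a threshold of 0.05. The ratio of antisense to sense was log2 CPM with a prior count of 2, fitted with limma 3.58.1 (trend, robust) over 588 pairs. CPM printed for libraries are TMM-scaled, while the 2 CPM limit used library totals. The biological coefficient of variation was 4.64%. Likeness to KLHL30-AS1 used log2 of CPM plus 0.1. Motifs were searched on both strands of RefSeq promoters with Python 3.11.15 (35116 entries for 27305 genes). Figures were drawn with matplotlib 3.10.9.

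Genes named are KLHL30-AS1, the 4 of highest mean, the 4 largest rises and falls among genes that passed at 2 CPM without overlap between the groups (2 each for the interaction and for DMSO 24 h against 6 h, the interaction without the overlap condition), up to 5 pairs per comparison with opposite calls ranked by the smaller change, 13 preset names, partners, and the 5 genes most like KLHL30-AS1. Alternatives were other scalings and filters, DESeq2 1.42.0, a replicate block, other CPM limits and leaving out each library. In counts simulated on the senescence comparison, 79.2% of 240 genes changed 2-fold were recovered over 17926 genes with 12 false calls, and 78.8% of 52 pairs over 544 pairs with 3 false calls. Only these 240 genes were changed, with equal numbers up and down. In the real comparison 70.0% of genes passed, so these rates need not hold there. No library repeated another of its group, since the chi-square per degree of freedom was 2.94 to 11.6 over 15 replicate pairs. Results for 1 gene that this rule names are not reported here.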

Additional observations from a re-analysis of the deposited data

Results flagged for a closer look

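For 21 of the antisense genes named by the rule, and for DLGAP1-AS2 and ZBED3-AS1, named after their values were seen, the GNF-7 effect at 24 h differed from that at 6 h by the interaction term of the edgeR fit (log2 differences, 24 h minus 6 h, among 351 genes of which 91 passed). These differences are signed. Higher includes a smaller fall, as for AGAP2-AS1 (-0.68 at 6 h and -0.38 at 24 h), and lower includes a deeper one. The log2 change was higher at 24 h for DAAM2-AS1 (2.55), RUNX3-AS1 (2.35), PDE7B-AS1 (1.34), VLDLR-AS1 (1.10), TMEM9B-AS1 (1.01), ADGRL1-AS1 (0.97), CCDC18-AS1 (0.55) and AGAP2-AS1 (0.31). It was also higher for LMNTD2-AS1 (1.57), INKA2-AS1 (0.86), OIP5-AS1 (0.31), FGD5-AS1 (0.21), DLGAP1-AS2 (0.82) and ZBED3-AS1 (0.71). It was lower at 24 h for ITGB2-AS1 (-1.78), TMPO-AS1 (-1.36), SERTAD4-AS1 (-1.30), CFLAR-AS1 (-1.05), FOSL2-AS1 (-0.80), THAP7-AS1 (-0.67), MCM3AP-AS1 (-0.62), GAS6-AS1 (-0.53) and CCDC144NL-AS1 (-0.22). RUNX3-AS1 and DAAM2-AS1 reached 2 CPM only with GNF-7 at 24 h, VLDLR-AS1 only with GNF-7 and SERTAD4-AS1 only in DMSO, so their differences are descriptions. The call of AGAP2-AS1 was lost under 13 of 23 alternatives, and the value of RUNX3-AS1 went down to 1.63. ZBED3-AS1 was lost without replicate 2 of DMSO 6 h (0.59) or replicate 3 of DMSO 24 h (0.62). VLDLR-AS1 was at 0.89 without replicate 2 of DMSO 6 h and at 0.88 without replicate 3 of DMSO 24 h. The call of ADGRL1-AS1 was lost without replicate 2 of GNF-7 24 h (0.67), and that of CFLAR-AS1 without replicate 1 of DMSO 24 h (-0.91).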

How the results depend on the processing

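Among settings that kept all 15 libraries, counts of antisense genes that passed moved by over 1.5 times only where fewer genes were kept. With a limit of 5 CPM in a group 148 passed in senescent cells and 149 with GNF-7 at 24 h, and with 2 CPM in every group 115 passed in senescent cells, 88 with GNF-7 at 6 h, 117 at 24 h and 54 for the interaction. Leaving out 1 library gave 223 to 243 in senescent cells, 138 to 163 with GNF-7 at 6 h, 205 to 235 at 24 h, 75 to 97 for the interaction and 21 to 36 for DMSO 24 h against 6 h, the last with 21 without replicate 1 and 23 without replicate 3 of DMSO 24 h. For the ratio it gave 197 to 218, 80 to 110, 162 to 190, 30 to 58 and 0 to 5 in the same order, and for the interaction 30 to 35 without any 1 of 6 libraries: replicates 1 and 3 of GNF-7 6 h (33 and 34), replicates 1 and 3 of DMSO 24 h (33 and 35) and replicates 2 and 3 of GNF-7 24 h (30 and 33). Without the limma trend no pair passed for DMSO 24 h against 6 h (0 against 2). Outside mitochondrial genes the share of counts was 0.216%, 0.311%, 0.399%, 0.327% and 0.518% for cycling cells, DMSO 6 h, GNF-7 6 h, DMSO 24 h and GNF-7 24 h.

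With library totals the median log2 change of all genes in senescent cells was 0.19 in place of 0.06, and MCM3AP, which fell by 0.13, was then at 0.0062, with no call. Among named genes and ratios that passed, 8879 values over all alternatives kept the call, 310 lost it and 1 changed sign. The same replicate numbers did not mark shared cultures in the labels, and same-numbered libraries did not deviate together (r from -0.04 to 0.06 over 30 pairs). With the replicate number as a block 243, 167, 236, 94 and 39 genes and 219, 106, 192, 56 and 2 pairs passed in the 5 comparisons. Genes near 2 CPM rest on few counts, and a change in them that did not pass may not be detectable at this depth.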
